A study of Mus musculus with 12 samples.

Results

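Imprinted genes were examined in RNA sequencing data from the aorta of ApoE-/- mice treated with AZ6983. The genes were taken as a list of 34 mouse genes known to be imprinted, among them Nnat, and each was found by its symbol in the table of raw counts. Of the 34, 33 had a row among the 25284 genes of the table, and 29 passed the filter on low counts and were among the 15857 genes tested. Phlda2 was not analysed here, and Usp29, Magel2, Rtl1 and Rasgrf1 had too few counts to be tested. The list was written for Nnat, which had been picked from the comparison of AZ6983 with control in these same mice. The value of Nnat in that comparison is therefore a description and not independent evidence, whereas the relation of Nnat to the other genes from mouse to mouse was not used to choose it.

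All 12 mice were male ApoE-/- mice on the C57BL/6 background, fed a high fat, cholesterol enriched diet, and were 18 weeks old when the thoracic aorta was taken. They all lack functional apolipoprotein E, a protein of lipoprotein clearance, so the data hold no mice with normal Apoe. Of these, 6 served as controls and received vehicle, cyclodextrin in saline (named C1 to C6 here). The other 6 received AZ6983, an agonist of the alpha 7 nicotinic acetylcholine receptor (α7nAChR), at 50 µmol per kg per day (A1 to A6). Delivery was by osmotic minipumps under the skin for 8 weeks in both groups, and RNA came from the whole vessel piece with no sorting of cells.

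An imprinted gene is expressed mainly from the copy inherited from the mother or mainly from the copy inherited from the father. The difference is set by DNA methylation laid down in the germ line at imprinting control regions, many of which steer a cluster of neighbouring genes and contain a promoter of a long noncoding RNA. Imprinted genes are known for roles in fetal growth, placenta, fat and brain, and many of them are turned down in most tissues after birth while neurons and endocrine cells keep expressing some. The counts carry no information on alleles, so the parental origin given here is background.

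The promoters shown belong to Nnat, to its neighbour Blcap and to the 4 genes with the highest correlations with neuronal marker genes in these aortas, with every CG dinucleotide in capitals since methylation of CG is the mark that imprinting uses. They come from RefSeq on GRCm38.p6 and run from 250 bases before to 50 bases after the start of transcription, in the direction of the gene. Nnat, at chr2:157559828-157560127 on the plus strand, and Blcap, at chr2:157566312-157566611 on the minus strand, are followed by Mest at chr6:30737800-30738099, Usp29 at chr7:6730333-6730632, Zdbf2 at chr1:63200108-63200407 and Ndn at chr7:62348027-62348326, each of these on the plus strand. Where a gene has several windows, 1 that holds the letters TGCCGC is shown.
Nnat: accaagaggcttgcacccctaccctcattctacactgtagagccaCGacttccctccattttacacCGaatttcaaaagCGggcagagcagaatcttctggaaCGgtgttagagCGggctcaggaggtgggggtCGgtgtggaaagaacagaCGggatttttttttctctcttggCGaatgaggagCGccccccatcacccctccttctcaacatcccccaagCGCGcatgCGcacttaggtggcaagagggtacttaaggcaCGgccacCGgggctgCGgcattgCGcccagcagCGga
Blcap: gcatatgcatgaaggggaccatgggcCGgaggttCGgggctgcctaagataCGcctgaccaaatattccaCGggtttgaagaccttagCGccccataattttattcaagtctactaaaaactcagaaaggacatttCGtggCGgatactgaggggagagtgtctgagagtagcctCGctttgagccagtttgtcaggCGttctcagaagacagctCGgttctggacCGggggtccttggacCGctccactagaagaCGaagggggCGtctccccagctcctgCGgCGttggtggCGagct
Mest: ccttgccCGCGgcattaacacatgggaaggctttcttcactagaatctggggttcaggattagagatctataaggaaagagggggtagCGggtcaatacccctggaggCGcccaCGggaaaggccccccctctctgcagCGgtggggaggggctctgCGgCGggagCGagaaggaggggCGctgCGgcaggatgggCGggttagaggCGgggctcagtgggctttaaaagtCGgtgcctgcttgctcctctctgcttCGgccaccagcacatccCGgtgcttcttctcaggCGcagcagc
Usp29: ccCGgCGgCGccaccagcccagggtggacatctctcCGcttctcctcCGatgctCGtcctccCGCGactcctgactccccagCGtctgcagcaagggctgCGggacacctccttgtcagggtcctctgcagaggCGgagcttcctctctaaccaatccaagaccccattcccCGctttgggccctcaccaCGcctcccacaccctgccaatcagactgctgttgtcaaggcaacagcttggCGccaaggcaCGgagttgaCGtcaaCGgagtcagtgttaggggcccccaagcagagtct
Zdbf2: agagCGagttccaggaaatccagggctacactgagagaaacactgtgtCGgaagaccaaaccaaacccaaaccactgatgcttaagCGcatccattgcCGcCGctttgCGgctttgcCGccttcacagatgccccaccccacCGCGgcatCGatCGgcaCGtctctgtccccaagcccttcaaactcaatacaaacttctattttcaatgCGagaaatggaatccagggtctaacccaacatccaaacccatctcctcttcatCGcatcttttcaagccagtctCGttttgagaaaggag
Ndn: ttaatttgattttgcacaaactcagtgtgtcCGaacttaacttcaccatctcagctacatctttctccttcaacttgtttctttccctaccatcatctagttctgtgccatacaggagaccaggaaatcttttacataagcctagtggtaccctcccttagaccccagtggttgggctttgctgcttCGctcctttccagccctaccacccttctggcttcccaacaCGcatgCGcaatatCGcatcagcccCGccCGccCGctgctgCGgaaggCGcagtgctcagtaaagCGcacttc

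The windows of Nnat, Blcap, Mest and Usp29 each held 17 CG, that of Zdbf2 held 15 and that of Ndn held 11, against a median of 7 over all 32851 windows of the table. Over the 40 windows of the 26 imprinted genes found in that table the median was 14.5. The letters TGCCGC, the core of the motif bound by ZFP57 when it is methylated, were searched on both strands. They were in 27.5% of the imprinted genes' windows and in 11.6% of all windows. Counted by gene, 10 of the 26 held a match, and some windows of the same gene overlap. The letters themselves hold CG, and the shares were not compared at equal CG content. The window of Nnat held a match at position 28, that of Mest held matches at -242 and -67 and that of Zdbf2 at -155, -136 and -107, where 1 is the first transcribed base and -1 the base before it. The windows of Blcap, Usp29 and Ndn held none, nor did another Mest window with 8 CG and another Zdbf2 window with 38. The Zdbf2 window shown lies upstream of that gene's start in GENCODE M21, chr1:63273265, which the window with 38 CG spans. The Usp29 window shares 263 bases with that of Peg3, which is transcribed in the other direction. A match of letters is a description of the sequence and was not measured as binding or methylation here.

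The libraries held 23810036 to 35864666 counts on genes. Reads that fell on no annotated gene made up 10.1% ± 1.55 (SD, n = 6) of the table's reads in controls and 12.8% ± 1.36 in AZ6983 mice. Smooth muscle genes were high in every library. Acta2, smooth muscle actin, lay between 3610 and 7101 CPM (counts of a gene as a share of the library's counts on genes, times 1e6 and scaled with TMM) in all 12 mice, and Myh11, smooth muscle myosin, between 4551 and 7014. Other tissue was present to different degrees, since the summed CPM of 14 neuron genes ran from 40.4 to 1212 in controls and from 52.5 to 466 in AZ6983 mice. Genes of thymocytes and T cells summed to 1021 CPM in A4 and to at most 25.3 in any control. Apoe counts were 117 to 306 in controls and 214 to 311 in AZ6983 mice, and where these reads lie relative to the disrupted part of the gene was not examined.

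The levels of the imprinted genes in the aorta differed over several orders of magnitude when expressed per kb of annotated exon. Gnas, the α subunit of the stimulatory G protein, was highest with 127 ± 16.0 CPM per kb in controls and 116 ± 36.8 in AZ6983 mice (mean ± SD, n = 6). Igf2r, the receptor that takes up IGF2 and lysosomal enzymes, followed at 23.5 ± 1.61 and 23.8 ± 2.39. Peg13 RNA, Impact, a regulator of the kinase GCN2, and Grb10, an inhibitor of insulin receptor signalling, came next with means over all mice of 14.5, 12.9 and 10.2 CPM per kb. Grb10, Ube3a and Blcap were not separated beyond their spread, at 10.1 ± 0.784, 9.96 ± 0.342 and 10.1 ± 0.529 CPM per kb in controls. Nnat took rank 15 of 33 with 5.55 ± 2.68 CPM per kb in controls and 1.49 ± 0.597 in AZ6983 mice. The growth factor Igf2 stood at 1.52 ± 0.166 CPM per kb in controls. Rtl1, a gene of placenta and muscle, had 7 counts in all mice together.

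**Figure D1:**
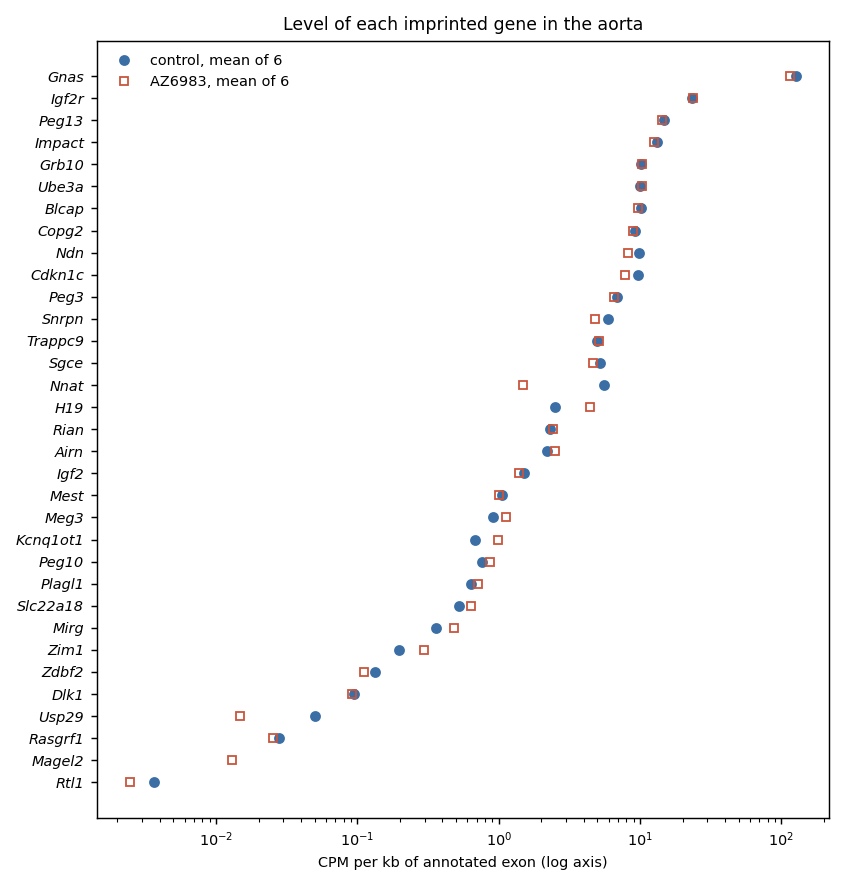
Mean level of the 33 imprinted genes with a row, as CPM per kb of annotated exon on a log axis, for 6 control (filled circles) and 6 AZ6983 mice (open squares). Gnas stands at 127 and 116 CPM per kb, Nnat is the tested gene whose group means lie farthest apart, and Magel2 has no control point because it had 0 counts there.

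Nnat, which encodes neuronatin, a small membrane proteolipid of developing neurons and secretory cells, was lower in AZ6983 mice than in controls. It lies at chr2:157560078-157562522 (GRCm38, plus strand), within the span of Blcap on the minus strand, and no exon of the 2 genes overlaps. Its raw counts were 119, 299, 415, 120, 299 and 463 in C1 to C6 and 86, 57, 78, 171, 41 and 50 in A1 to A6. In all, 5 of the 6 AZ6983 mice were below every control, and A4 with 4.55 CPM stood just above C4 with 4.46 and C1 with 4.15. Means were 10.1 ± 4.89 CPM in controls and 2.73 ± 1.09 under AZ6983, which gave a log2 fold change of -1.89 (SE 0.367). In bulk tissue, fewer cells of the type that expresses a gene and less RNA per cell cannot be told apart.

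The call for Nnat depended on the test. With edgeR's quasi-likelihood test its unadjusted p was 0.0002 and its adjusted p 0.394, and at 10% FDR edgeR called 0 of 15857 genes (0%), none of them imprinted. With DESeq2, the test the study used, Nnat had a log2 fold change of -1.89 and an adjusted p of 0.000236. DESeq2 called 92 of 17592 genes (0.523%), 65 higher (0.369%) and 27 lower in AZ6983 (0.153%), and Nnat was the only imprinted gene of the list among them. With limma-voom 0 genes of the list were called. Leaving out each mouse in turn gave edgeR log2 fold changes of Nnat from -2.09 to -1.72 with adjusted p from 0.148 to 0.678.

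Blcap, which overlaps Nnat and is reported to be expressed from the maternal copy where Nnat is expressed from the paternal one, had nearly the same level in both groups. Its values were 28.9, 30.4 and 33.3 CPM in controls (lowest, median and highest) and 25.3, 28.1 and 38.9 under AZ6983. The log2 fold change was -0.05 (SE 0.0961, edgeR adjusted p = 0.866). The groups overlapped, and the spread in AZ6983 mice came largely from A5 at 38.9 CPM.

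Of the 28 tested imprinted genes other than Nnat, 14 had a log2 fold change above 0 and 14 below, with a median of -0.02 against 0.01 over all tested genes. Of all 15857 tested genes, 8314 were above 0 and 7543 below. An unadjusted edgeR p under 0.05 was reached by 5 of the 28, 3 higher and 2 lower, where 10.2% of all tested genes reached it (7.38% higher and 2.81% lower in AZ6983). In 65 of 15857 tested genes (0.41%) the values of the groups did not overlap, 41 of them higher (0.259%) and 24 lower (0.151%) in AZ6983, and 0 of the 29 tested imprinted genes, Nnat included, were among them. DESeq2's smallest adjusted p after that of Nnat were 0.154 for Cdkn1c and 0.161 for Kcnq1ot1.

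**Figure D2:**
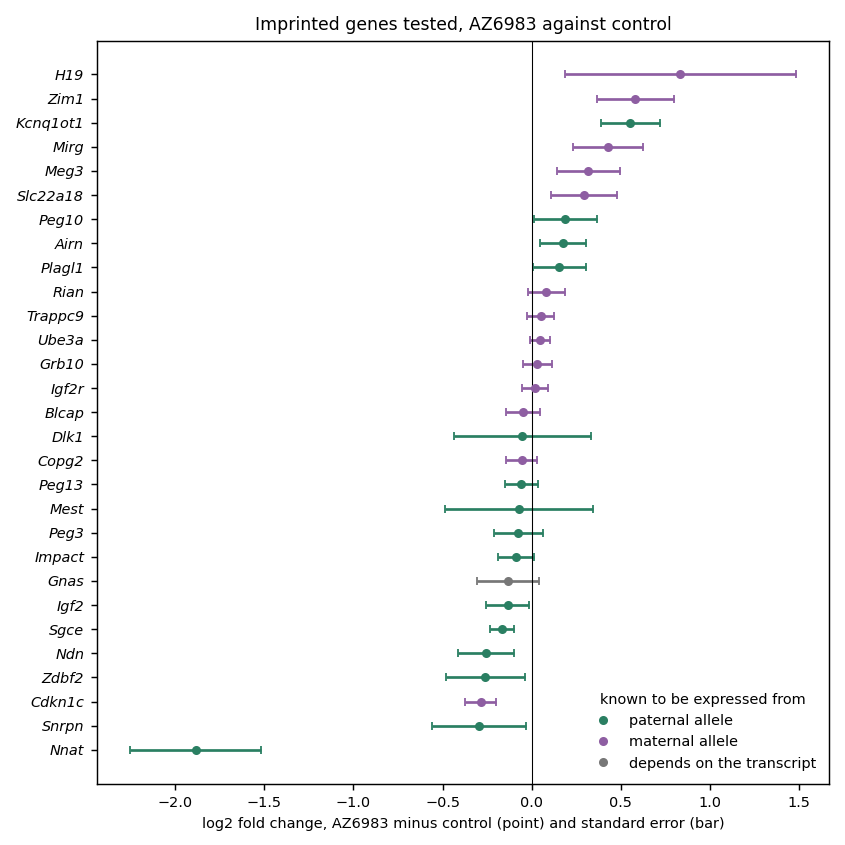
Log2 fold change of the 29 tested imprinted genes, AZ6983 minus control (edgeR), as points with bars of 1 standard error, coloured by the parental copy from which the gene is known to be expressed. The maternal colour includes Ube3a, Trappc9 and Grb10, whose maternal expression is known for some tissues only. Nnat at -1.89 lies apart from all others, which run from -0.30 for Snrpn to 0.83 for H19.

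Genes expressed from the paternal copy were more often lower than higher, and those expressed from the maternal copy the reverse, with 0 edgeR calls on either side. The signs of 12 of the 29 genes turned when the share of reads on no gene was included, as given in the closing section. The signs of Dlk1 and Mest also turned with the neuron score as covariate, and the split was not tested. Of 15 paternally expressed genes tested, 4 were higher and 11 lower, with a median log2 fold change of -0.08. The 11 include Nnat, for which the list was written. They also include Mest, Snrpn, Ndn, Zdbf2 and Impact, which varied with neuron genes as described further on. So did Copg2, a lower gene of the maternal class. Of 13 maternally expressed genes, 10 were higher and 3 lower, with a median of 0.05. The 13 include genes whose maternal expression is known for some tissues only. These are Ube3a (neurons), Trappc9 (brain) and Grb10 (outside neurons), all among the higher ones, at 0.05, 0.05 and 0.03. Which copy they are expressed from in aorta was not measured. The 7 noncoding RNAs had a median of 0.32, with 6 of them higher, and the 22 coding genes a median of -0.06. The noncoding RNAs belong to both parental classes, and 5 of the 7 (H19, Meg3, Mirg, Kcnq1ot1 and Airn) also varied with how many reads fell on no gene at an unadjusted permutation p under 0.05, as described further on.

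At the Kcnq1 cluster, the noncoding RNA Kcnq1ot1 is transcribed from the paternal copy antisense to Kcnq1. Kcnq1ot1 and the maternally expressed Slc22a18 had log2 fold changes above 0, and the maternally expressed Cdkn1c had one below 0. Kcnq1ot1 values were 45.4, 58.5 and 89.6 CPM in controls and 64.2, 93.3 and 118 in AZ6983 mice (lowest, median and highest), and 4 AZ6983 mice were above every control. Its log2 fold change was 0.55 (SE 0.165, unadjusted p = 0.00542, adjusted p = 0.447 with edgeR). Cdkn1c, the cyclin-dependent kinase inhibitor p57, had 17.3, 19.9 and 21.8 CPM in controls and 14.6, 15.6 and 19.9 in AZ6983 mice. There were 5 AZ6983 mice below every control, and A1 was within their range. The log2 fold change of Cdkn1c was -0.29 (SE 0.0861, unadjusted p = 0.00547, adjusted p = 0.447). Slc22a18, a membrane transporter of the same cluster, had a log2 fold change of 0.29 (SE 0.186, adjusted p = 0.577). Annotated exons of Kcnq1ot1 share 1119 bases with genes on the other strand, Kcnq1 among them, and the strand setting of the counting is not given in the sources used here.

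In the Peg3 cluster, the zinc finger gene Zim1 had 1.34, 1.54 and 1.92 CPM in controls and 1.45, 2.58 and 3.19 in AZ6983 mice, and 4 AZ6983 mice were above every control while A3 and A4 were within the range of controls. The log2 fold change was 0.58 (SE 0.216, unadjusted p = 0.0186, adjusted p = 0.45). Peg3, a zinc finger protein expressed from the other parental copy, had a log2 fold change of -0.08 (SE 0.137, adjusted p = 0.859). Usp29, a gene of the ubiquitin peptidase family that starts next to Peg3, had 2, 15, 83, 0, 3 and 52 counts in C1 to C6 and 17, 0, 9, 9, 5 and 5 in A1 to A6. Thus 67.5% of its 200 counts came from C3 and C6.

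**Figure D3:**
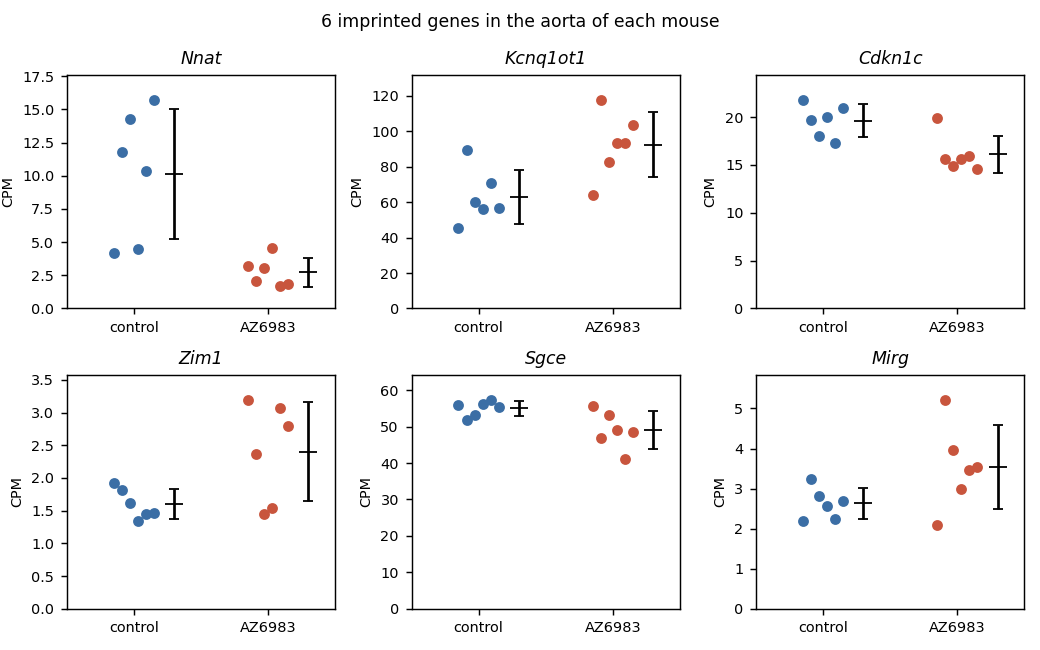
CPM of the 6 imprinted genes with an unadjusted edgeR p under 0.05, 1 point per mouse, with the mean and SD of each group (n = 6) beside the points. For Nnat 5 of 6 AZ6983 mice and for Cdkn1c 5 of 6 lie below every control, while for Kcnq1ot1, Zim1 and Mirg 4 of 6 lie above every control.

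The Dlk1-Meg3 cluster carries several maternally expressed noncoding RNAs, and their fold changes were graded. Mirg, a host of microRNAs, had 2.20, 2.63 and 3.24 CPM in controls and 2.08, 3.51 and 5.21 under AZ6983, which gave a log2 fold change of 0.43 (SE 0.195, unadjusted p = 0.0471, adjusted p = 0.487). Meg3, a nuclear noncoding RNA, had a log2 fold change of 0.32 (SE 0.176, adjusted p = 0.538), and Rian, a host of snoRNAs, 0.08 (SE 0.104, adjusted p = 0.79). The paternally expressed Dlk1, which holds back the formation of fat cells, was at 0.209 to 1.17 CPM in controls and 0.26 to 0.671 in AZ6983 mice, and the sign of its log2 fold change of -0.05 turned in some alternative fits.

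H19 and Igf2 share an imprinting control region and are expressed from opposite parental copies. H19, a noncoding RNA that hosts a microRNA, varied more between mice than any other tested imprinted gene. It had 3.07, 19.1, 2.79, 2.08, 6.93 and 2.96 CPM in C1 to C6 and 4.31, 13.1, 3.14, 3.78, 18.2 and 23.2 in A1 to A6. C2, A2, A5 and A6 were the high mice, so both groups held low and high values, and the log2 fold change of 0.83 had a standard error of 0.649 (adjusted p = 0.636). It was 1.60 without C2 and 0.47 without A6. Igf2 lay between 6.53 and 10.6 CPM in all mice, with a log2 fold change of -0.14 (SE 0.12, adjusted p = 0.681).

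Among the other genes, Sgce, which encodes the membrane protein epsilon-sarcoglycan, had 52.0, 55.7 and 57.3 CPM in controls and 41.0, 48.8 and 55.5 in AZ6983 mice, 4 of the AZ6983 mice were below every control, and the log2 fold change was -0.17 (SE 0.0671, unadjusted p = 0.0288, adjusted p = 0.466). Its neighbour Peg10, a gag-like gene derived from a retrotransposon, had a log2 fold change of 0.19 (SE 0.177, adjusted p = 0.698). The receptor pair Igf2r and Airn, its antisense RNA, had log2 fold changes of 0.02 (SE 0.0731) and 0.17 (SE 0.129). Magel2, a MAGE family gene of the Snrpn cluster, had 0 counts in every control and 1, 5, 1, 1, 1 and 1 counts in A1 to A6. These 10 counts are too few for a test or a fold change.

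The genes that keep imprints were described with a list of 22, of which 18 were tested. Of these, 15 had a log2 fold change above 0 and 3 below, with a median of 0.08, and edgeR called 0, limma-voom 0 and DESeq2 0 of them. Over all tested genes 8314 were above 0 and 7543 below, and the split of the list was not tested against this. An unadjusted p under 0.05 was found for 2 of the 18 (11.1%), near the 10.2% of all tested genes. These were Tet2, an enzyme that oxidises methylated cytosine, with a log2 fold change of 0.20 (SE 0.076), and Uhrf1, which brings the methyltransferase DNMT1 to newly copied DNA, at 1.35 (SE 0.562). The value of Uhrf1 rested on A4, which had 31.2 CPM while the other 5 AZ6983 mice had 2.97 to 4.85 and controls 2.62 to 4.67. A4 was also the mouse with the high thymocyte and T cell genes.

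Beyond the list, 54 further genes reported as imprinted in mice were counted, of which 41 were tested. There were 12 with a log2 fold change above 0 and 29 below, with a median of -0.04, and 0 were called by edgeR, limma-voom or DESeq2. This split, too, was not tested against the 8314 above and 7543 below over all tested genes. Of the 41, 3 (7.32%) had an unadjusted p under 0.05, where 10.2% of all tested genes did. Zrsr1, related to a splicing factor subunit, had a log2 fold change of -0.19 (SE 0.0748). The cation transporter Slc22a2 was at -0.41 (SE 0.162). The tetraspanin Tspan32 was at 0.65 (SE 0.292), with A4 at 4.50 CPM and the remaining AZ6983 mice at 1.60 to 1.92.

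Whether other imprinted genes follow Nnat was then asked from mouse to mouse, with the mean of each group removed so that the difference between the groups did not enter. Log2 CPM of Nnat was compared with that of 28 other tested imprinted genes over the 12 mice, with p from 100000 permutations within groups and Benjamini-Hochberg adjustment over the 28. At 5% FDR 0 of the 28 relations passed, by Pearson's r or by Spearman's rho, and the median r was 0.17. At an unadjusted permutation p under 0.05, 2 of them passed, Slc22a18 and Zdbf2. Slc22a18 had the highest value, r = 0.74 and rho = 0.83 (adjusted permutation p 0.0571 and 0.0764), with r = 0.81 in controls and 0.84 in AZ6983 mice. Zdbf2, a zinc finger gene, had r = 0.70 (adjusted permutation p = 0.402), from 0.88 in controls and 0.22 in AZ6983 mice. Blcap had r = -0.34 (adjusted permutation p = 0.54). The mice farthest from the median of Nnat were C1 and C4, and without them r was 0.85 for Slc22a18 and 0.33 for Zdbf2.

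Nnat had closer relations elsewhere in the transcriptome. The 5 genes with the highest r to Nnat among the other 15856 tested genes were Mgat3, Ralgps2, Mag, Nsg2 and Dnaic2, with r of 0.95, 0.93, 0.91, 0.91 and 0.90 over the 12 mice. They were picked as the highest of many and are given without a test. Mgat3 is a glycosyltransferase, Mag a myelin protein and Nsg2 a protein of neurons. The imprinted gene closest to Nnat, Slc22a18, came at rank 398 of this order, and Ndn at rank 1014.

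Nnat was set beside 12 lists of cell type markers and the share of reads on no gene, 13 relations in all. After adjustment over the 13, 3 passed 5% FDR. The list of 14 Schwann cell and myelin genes had r = 0.83 and rho = 0.83 (adjusted permutation p 0.0356 and 0.0465). The list of 10 neuroendocrine genes had r = 0.82 and rho = 0.80, and the list of 14 neuron genes r = 0.80 and rho = 0.80, with the same adjusted permutation p of 0.0356 for each r. These relations leaned on controls, since r was 0.91, 0.92 and 0.91 in controls and 0.62, 0.52 and 0.45 in AZ6983 mice. Without C1 and C4 they were 0.58, 0.55 and 0.53. These mice were picked as farthest from the median of Nnat, so leaving them out also narrows its range. With any 1 mouse left out, the lowest r were 0.77, 0.74 and 0.70. No list passed when C1, C2, C3, C5, C6 or A3 was left out, which also reduced the number of mice to 11.

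The neuron score, the mean log2 CPM of the 14 neuron genes, was 2.47 ± 2.71 in controls and 2.40 ± 1.38 in AZ6983 mice (SD, n = 6). The fitted log2 fold change was below 0 for all 14 neuron genes, with a median of -1.24, and 0 of them reached an unadjusted edgeR p under 0.05. Their defining members Tubb3, a neuronal tubulin, and Nefl, a neurofilament, had median CPM of 16.6 and 7.77 in controls and of 14.7 and 8.20 in AZ6983 mice. The noradrenaline enzyme Dbh had 0.174 to 191 CPM in controls and 1.69 to 65.7 in AZ6983 mice, and C3, C6 and A1 were the highest. Snap25, a protein of synaptic vesicle release, had 0 counts in at least 1 control. The Schwann cell list summed to 240 to 500 CPM in controls and 249 to 385 in AZ6983 mice, with 10 genes higher and 4 lower. Of its 14 genes, 1 (7.14%) reached an unadjusted edgeR p under 0.05, a lower one, where 10.2% of all tested genes did. At 10% FDR edgeR called 0 of this list and DESeq2 called 1, where DESeq2 called 0.523% of all genes. Its member Sox10 was counted in every mouse. The 9 tested neuroendocrine genes had log2 fold changes below 0, with a median of -0.89, and 0 of them reached an unadjusted edgeR p under 0.05. The list summed to 943 to 1260 CPM in controls and 591 to 1177 in AZ6983 mice, and Chga and Chgb were counted in every mouse. With the neuron score as a covariate, an alternative chosen after seeing the data, the log2 fold change of Nnat was -1.74 (SE 0.246) with an adjusted edgeR p of 0.0991, among 4 genes called of 15857 (0.0252%). A1 had the third highest neuron score, 4.51, and 3.19 CPM of Nnat. It was 1 of 5 AZ6983 mice with Nnat below every control, and only A4 had more Nnat in that group.

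Several other imprinted genes had higher correlations with the neuron genes than Nnat, a difference that was not itself tested. This family of 30 relations, the 29 tested genes and Usp29, was chosen after the data had been seen. Usp29 had not passed the filter on low counts and was added by name, while Magel2, Rtl1 and Rasgrf1 were left out. It had 0 counts in C4 and A2, and its values here are a description and not independent evidence. At 5% FDR 8 passed by r and 7 by rho. The share of all tested genes that follow the neuron score was not counted, so these numbers do not set imprinted genes apart. Mest, a membrane protein of the alpha/beta hydrolase fold, had r = 0.95 and rho = 0.95 (adjusted permutation p 0.0024 and 0.003). Usp29 had r = 0.94 and rho = 0.96, Zdbf2 r = 0.93 and rho = 0.89, and Ndn, the MAGE family protein necdin, r = 0.91 and rho = 0.92, with adjusted permutation p of 0.0026 to 0.00288 for r. Snrpn, which encodes the splicing protein SmN, had r = 0.86, Impact 0.83, Nnat 0.80 and Copg2, a subunit of the COPI coat, 0.65, the last not passing by rho (adjusted permutation p = 0.0625).

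In each group r was above 0 for every gene that passed. Exact permutation p within 1 group was not under 0.05 for all of them. For Copg2 r was 0.62 in controls and 0.89 in AZ6983 mice (exact permutation p 0.189 and 0.0319). In AZ6983 mice r was 0.92 for Usp29, 0.83 for Mest and Snrpn, 0.80 for Ndn and Zdbf2 and 0.68 for Impact, against 0.45 for Nnat. Exact permutation p within the 6 AZ6983 mice were 0.0208 for Usp29, 0.05 for Mest, 0.0389 for Snrpn, 0.05 for Ndn, 0.0708 for Zdbf2, 0.125 for Impact and 0.365 for Nnat. Without C1 and C3, the mice farthest from the median neuron score, r was 0.96 for Usp29, 0.91 for Mest and Ndn, 0.86 for Zdbf2, 0.82 for Snrpn, 0.74 for Impact and 0.69 for Nnat. With each mouse left out in turn, the first 6 genes kept an adjusted permutation p of at most 0.0243, while Nnat reached 0.0962 and Copg2 0.138.

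Mest had 1.60, 3.84, 8.97, 1.93, 2.496 and 6.09 CPM in C1 to C6 and 6.72, 2.30, 4.35, 2.45, 4.04 and 3.91 in A1 to A6. C3, A1 and C6, which had the highest neuron scores, were also the highest for Mest, and the log2 fold change between the groups was -0.07 (SE 0.416, adjusted p = 0.964). Ndn had 29.1, 34.9, 51.2, 27.1, 30.8 and 43.3 CPM in C1 to C6 and 36.5, 24.9, 33.5, 26.2, 31.2 and 29.0 in A1 to A6, again with C3, C6 and A1 on top. Snrpn, whose exons overlap those of Snurf on the same strand, ran from 7.66 CPM in A4 to 24.7 in C3, and Zdbf2 from 0.971 in A2 to 2.69 in C3. For Nnat, A1 with 3.19 CPM was 1 of 5 AZ6983 mice below every control. Within the AZ6983 group only A4 had more Nnat than A1. Igf2 had no such relation with the neuron score, with r = -0.23. What part the share of neuronal RNA has in these genes was not tested beyond the values given.

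**Figure D4:**
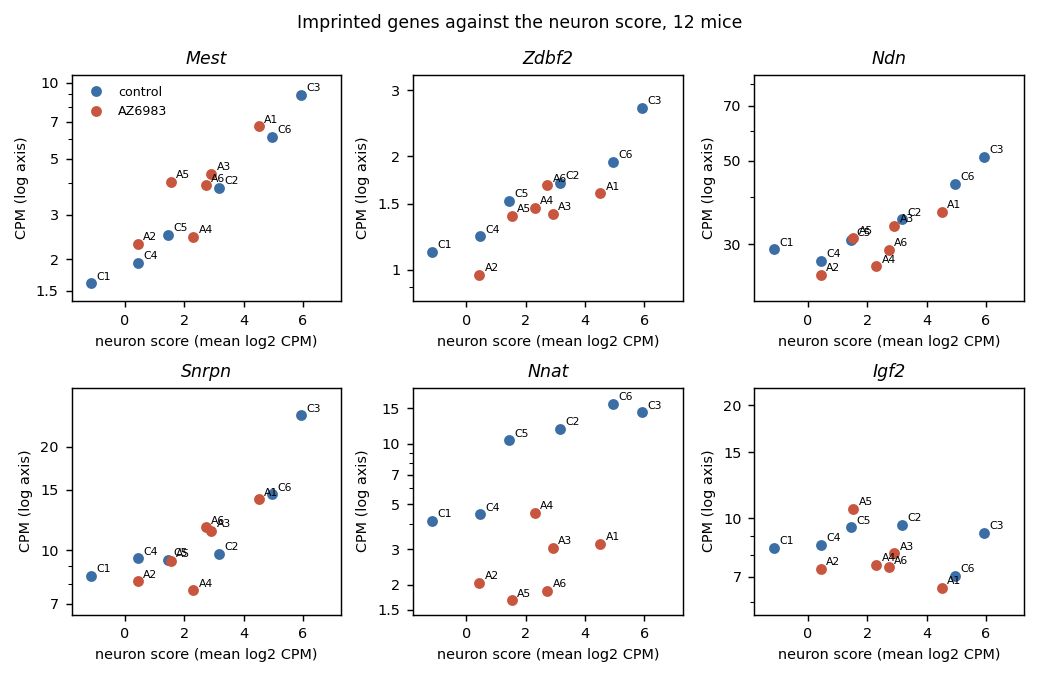
CPM of 6 imprinted genes (log axis) against the neuron score, the mean log2 CPM of 14 neuron genes, 1 labelled point per mouse. Mest, Zdbf2, Ndn and Snrpn rise along the score in both groups (group-centred r = 0.95, 0.93, 0.91 and 0.86), 5 of 6 AZ6983 points of Nnat lie below every control, and Igf2 shows r = -0.23.

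Genes of the same imprinted cluster were compared as pairs, of which 15 had both genes tested. After adjustment over the 15, 1 pair passed 5% FDR. Snrpn and Ndn, paternally expressed genes under 1 imprinting centre, had r = 0.92 and rho = 0.86 (adjusted permutation p 0.00495 and 0.0265), with r = 0.94 in controls, 0.87 in AZ6983 mice and 0.83 without C3 and A1. Both are also among the genes that followed the neuron score. The pairs with opposite parental expression ran from r = -0.64 for Cdkn1c and Kcnq1ot1 to 0.66 for Mest and Copg2 (adjusted permutation p = 0.0862 for the latter). Among them Igf2r and Airn had r = 0.63 (0.0869), and Nnat and Blcap had -0.34 (0.29). Mest and Copg2 share 912 bases of annotated exon on opposite strands. Meg3 and Rian, maternally expressed neighbours, had r = 0.71 (0.0862). Peg10 and Sgce, paternally expressed neighbours, had r = -0.51 and rho = -0.66 (adjusted permutation p 0.176 and 0.0976). Cdkn1c and Kcnq1ot1 had r = -0.64 (adjusted permutation p = 0.111), which dropped to -0.14 without C1 and A1.

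Kcnq1ot1 followed another measure, the share of reads that fell on no gene. Such reads lie mostly in introns and between genes, and total RNA without poly(A) selection holds more of them than messenger RNA does. This family of 29 relations was chosen after the data had been seen, and 1 passed 5% FDR. How many of all tested genes follow this measure was not counted. Kcnq1ot1 had r = 0.94 and rho = 0.88 (adjusted permutation p 0.00493 and 0.0273), with r = 0.95 in controls, 0.92 in AZ6983 mice and 0.87 without C2 and A2. In order of r, Mirg (0.75), H19 (0.74), Peg10 (0.72), Airn (0.68) and Meg3 (0.64) followed, with adjusted permutation p from 0.0557 to 0.166. C2, the control with the highest share (12.7%), was also the control with the highest Kcnq1ot1 (89.6 CPM), and A1, the AZ6983 mouse with the lowest share (11.2%), was the lowest of its group (64.2 CPM).

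With that share added to the model as a covariate, the log2 fold change of Kcnq1ot1 was 0.01 (SE 0.0964) where it was 0.55 without. Mirg went from 0.43 to -0.07, Meg3 from 0.32 to -0.07 and H19 from 0.83 to -0.65 (SE 0.611). Zim1 stayed at 0.58 (SE 0.312), Cdkn1c was at -0.16 (SE 0.112) and Nnat at -2.04 (SE 0.491). Since the share was higher in AZ6983 mice, treatment and the share cannot be fully told apart in 12 mice.

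**Figure D5:**
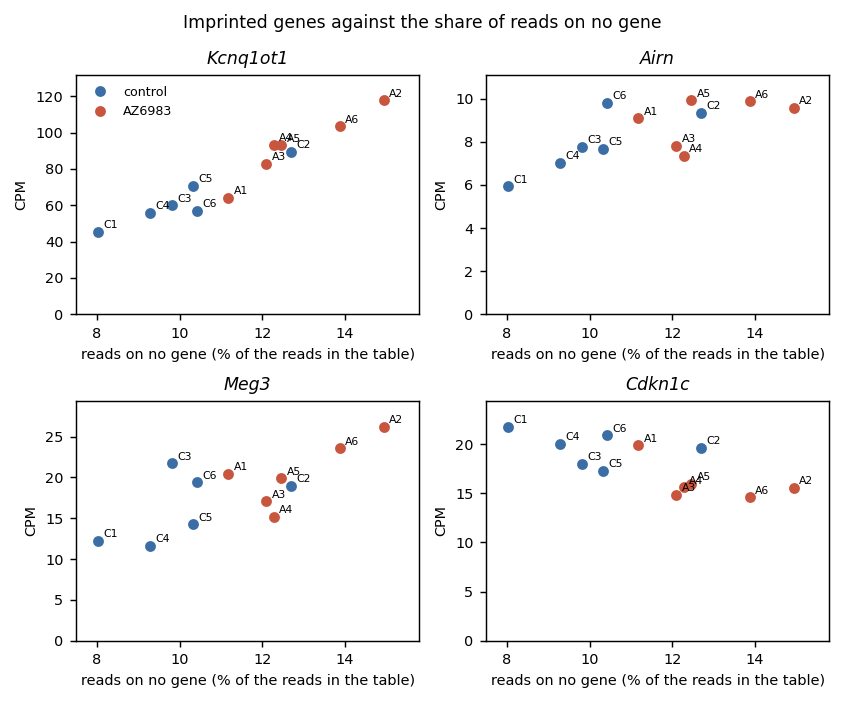
CPM of Kcnq1ot1, Airn, Meg3 and Cdkn1c against the percentage of the table's reads that fell on no gene, 1 labelled point per mouse. Kcnq1ot1 rises along the share within controls (r = 0.95) and within AZ6983 mice (r = 0.92), and the AZ6983 mice lie mostly to the right.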

How the data were processed

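Stranded total RNA libraries of 12 aortas, depleted of ribosomal RNA, were sequenced in pairs, and the authors deposited raw counts per gene symbol. The submitters' processing notes name CASAVA 1.8.2, STAR 2.5.2b, HTSeq 0.6.1p1 and mm10, and the annotation and strand setting are not given in the sources used here. The 3 rows that name no gene (reads on no gene, ambiguous, aligned more than once) were left out of library sizes. In each mouse they took 8.02% to 14.9%, 0.606% to 0.698% and 18.1% to 23.2% of all reads counted. Reads that map to several places are missing from near-identical genes, and unspliced RNA enters the counts. The labels of the samples gave the groups. In 11 columns the mouse number matched a label in full, and that of A1 matched 3 of 4 digits. The labels do not give batches or litters, and a library number at the end of each column has no stated meaning.

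The groups were compared by the quasi-likelihood test of edgeR 4.0.16 under R 4.3.3, after filterByExpr and TMM scaling and with treatment as the only term, at 10% FDR over 15857 genes. DESeq2 1.42.0, limma-voom (limma 3.58.1), RLE normalization, other filters, 5% FDR, the no-gene share as covariate and each mouse left out were alternatives. The neuron score as covariate and the relations with the neuron score and the no-gene share were chosen after seeing the data. Relations used log2 CPM (prior count 2), centred within groups, with two-sided p from 100000 permutations within groups, or exact within 1 group. P-values measure the spread between these mice. The genes and lists were chosen with earlier results of these data known. Named genes were all 34 listed, those of the wider imprinted and maintenance lists with an unadjusted edgeR p under 0.05, the 5 most like Nnat and the first 2 markers of a list. Snap25 and Dbh were named after their values were seen, and some markers are not reported here. Overlaps and exon lengths came from GENCODE M21 and promoters from RefSeq. The steps were tested on simulated data. At 20 of the 33 genes every mouse had over 100 counts, and at 8 none did.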

Additional observations from a re-analysis of the deposited data

Results flagged for a closer look

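A check for a mouse set apart from the rest of its group was made on 86 groups of 6 values, the log2 CPM of each tested imprinted gene and the score of each marker list. Chance alone sets apart about 1 in 20 groups, or 4.3 of 86, and 5 were found. Peg3 was high in control C3, at 6.998 on the log2 CPM scale where the other controls had 6.29 to 6.49, and C3 also had the highest neuron score. Cdkn1c was high in AZ6983 mouse A1, at 4.32 against 3.88 to 4.004 in the other AZ6983 mice, and A1 had the lowest share of reads on no gene of its group. Gnas was high in A5, at 11.05 against 9.97 to 10.32. Zdbf2 was low in A2, at 0.0596 against 0.546 to 0.806, and A2 had the lowest neuron score of its group. The brown adipocyte score was low in control C6, at 7.204 against 7.81 to 8.02.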

How the results depend on the processing

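No paired analysis was possible because the labels give mouse numbers that are not shared between the groups. The number of imprinted genes called was 0 with edgeR and limma-voom, 1 with DESeq2 and 1 with the neuron score as covariate, in both cases Nnat. It stayed 0 with RLE normalization, no filter, a mean of at least 50 counts, 5% FDR or any mouse left out. Leaving out a mouse gave 0 to 1 relations of Nnat with other imprinted genes (1 without C4), 1 to 3 pairs within a cluster (3 without C2), 0 to 3 relations of Nnat with marker lists (0 without C1, C2, C3, C5, C6 or A3, and 1 without A5), 6 to 11 relations with the neuron score and 1 to 3 with the no-gene share (3 without C3, 2 without C5 or A3). With the no-gene share as covariate, log2 fold changes changed sign for H19 (-0.65), Peg10 (-0.23), Plagl1 (-0.11), Airn (-0.0991), Igf2r (-0.0899), Grb10 (-0.0879), Meg3 (-0.0728), Mirg (-0.0663), Ube3a (-0.0181), Peg13 (0.0254), Mest (0.0537) and Copg2 (0.0892), none of which was called. Signs also changed for Igf2r with no filter (-0.00188), for Dlk1 (0.12) and Mest (0.0728) with limma-voom, and for Dlk1 (0.13) and Mest (0.16) with the neuron score. Leaving out a mouse turned the sign at least once for Igf2r (-0.0525 to 0.0503), Dlk1 (-0.219 to 0.332), Mest (-0.288 to 0.303), Peg3 (-0.146 to 0.0318), Grb10 (-0.0415 to 0.0593), Trappc9 (-0.022 to 0.0967) and Peg13 (-0.105 to 0.00769). The cause was not tested for any of these. At the 8 genes with few counts, counting error adds to the spread.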

Other observations

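Within AZ6983 mice several imprinted genes, coding and noncoding, had the opposite relation to Nnat from that in controls. This was seen after the fact, and the difference was not tested. Airn had r = 0.84 with Nnat in controls and -0.91 in AZ6983 mice (exact permutation p 0.0403 and 0.00694). Meg3 had r = 0.92 and -0.75 (exact permutation p 0.00833 and 0.0931). The coding gene Peg10 had r = 0.69 and -0.91 (exact permutation p 0.154 and 0.0208). The share of reads on no gene had r = 0.65 and -0.56 with Nnat. Other genes, such as Slc22a18 (0.81 and 0.84), kept their sign. Over all 12 mice with group means removed, r was 0.30 for Airn and 0.37 for Meg3, and neither passed 5% FDR among the 28 relations. Chrna7, which encodes the receptor that AZ6983 activates, had 1.004 to 3.88 CPM in controls and 0.776 to 2.82 under AZ6983, which gave a log2 fold change of -0.62 (SE 0.417, edgeR adjusted p = 0.591), with C3, C6 and A1 the highest, as for the neuron genes.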
